A study of Homo sapiens with 3 samples.

Results

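The genes described here encode the chains of the collagens, and their mRNA was compared by microarray in the lung cancer cell line H1975 and in the osimertinib-resistant lines OR1 and OR2. Membership followed the symbol: every gene of the array whose symbol has the form COL, a number, A and a number was taken. This gave 44 of the 43315 genes on the array, measured by 64 probes. The collagen genes were chosen as a set with earlier results of these data known. Of these genes, 29 had 1 probe and 15 had several, and a gene with several was represented by the probe that was brightest on average over the arrays. H1975 (NCI-H1975) is a non-small cell lung cancer cell line with mutated EGFR that is sensitive to osimertinib, an inhibitor of mutated EGFR. OR1 and OR2 were established from it independently, from separate flasks, with osimertinib doses raised in steps to 2 μmol/L during 4 months, and the methods call each of them a clone. All lines were grown in the same serum-containing medium, and whether osimertinib was present when RNA was taken is not given in the sources used here. Each line was measured on 1 single-colour Agilent array and all 3 arrays lay on 1 slide, so no difference has a replicate check, no p-value is given for a single line, and the number of arrays limits the precision of every value.

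Collagens are secreted proteins of the extracellular matrix, built as trimers of chains that wind around each other in a helix in which glycine recurs at regular spacing. Fibrillar collagens form the fibers of connective tissue, network collagens form the meshwork of basement membranes and related sheets, and FACIT collagens (fibril-associated collagens with interrupted helices) sit on the surface of fibers. The remaining chains include the beaded filaments of collagen VI, the anchoring fibrils of collagen VII, collagens that span the cell membrane, and collagens XV and XVIII of basement membranes. In tissue, fibrillar collagens are made mainly by fibroblasts, while epithelial cells and carcinoma cells make basement membrane collagens and varied amounts of others. The glycine repeat can be read in a probe for COL16A1 at chr1:32148536-32148595 (hg19), shown to illustrate the pattern. Capitals mark glycine codons (GG and any base) found at 5 of the 7 places that lie 9 bases apart. The offset with the most matches was used, and this probe was among those with the most.
COL16A1 probe: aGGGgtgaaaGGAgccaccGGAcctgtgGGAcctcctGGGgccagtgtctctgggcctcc

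The brightness of a spot, its intensity, stands for the amount of mRNA and can be set against the same probe on another array, but not against another probe. Ratios were formed after dividing each array by its 75th percentile, found at an intensity of 157 in H1975, against 138 (OR1) and 162 (OR2), and a gene was called higher at a ratio of at least 2 and lower at a ratio of at most 0.5, the limits of the methods. Where a probe was not well above background on 1 side, the ratio is a bound, written as at least or at most. That side was set to the lowest intensity the scanner software called well above background on the array, or kept its own reading where that was higher. This lowest intensity was 12.6 in H1975, 11.4 for OR1 and 12.6 for OR2. The scanner software's error model gave a technical SD of the log2 ratio with a median of 0.21 over the collagen probes in each line, which covers spot and scanner error but not variation between cultures. Between 45.6% and 45.9% of all probes were well above background on each array and no spot was saturated. Among the lung epithelial markers, 8 of 9 were well above background on all 3 arrays, SFTPB being at background on each. Of 9 fibroblast markers, PDGFRA, DCN, THY1, MFAP5 and PDPN were at background on every array. In bulk RNA, fewer cells that make a transcript and less of it per cell cannot be told apart.

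At least 1 array showed 27 of the 44 collagen genes well above background, namely 6 of 11 fibrillar, 6 of 9 network, 6 of 10 FACIT and 9 of 14 other chains. H1975 and OR1 each showed 25 of them, OR2 showed 23, and 21 were above background on every array. The fibrillar genes COL2A1, the chain of cartilage collagen, and COL3A1, which accompanies collagen I in skin and vessels, were at background throughout, as were COL5A3, COL11A1 and COL24A1. So were COL4A3, COL4A4 and COL8A2 among the network chains, COL9A1, COL19A1, COL21A1 and COL22A1 among the FACIT chains, and COL6A3, COL6A5, COL6A6, COL23A1 and COL25A1 among the others. The highest intensity of any of these 17 genes on any array was 15.1 on the probes used, for COL9A1 in OR1, and no ratio was formed for them.

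**Figure D1:**
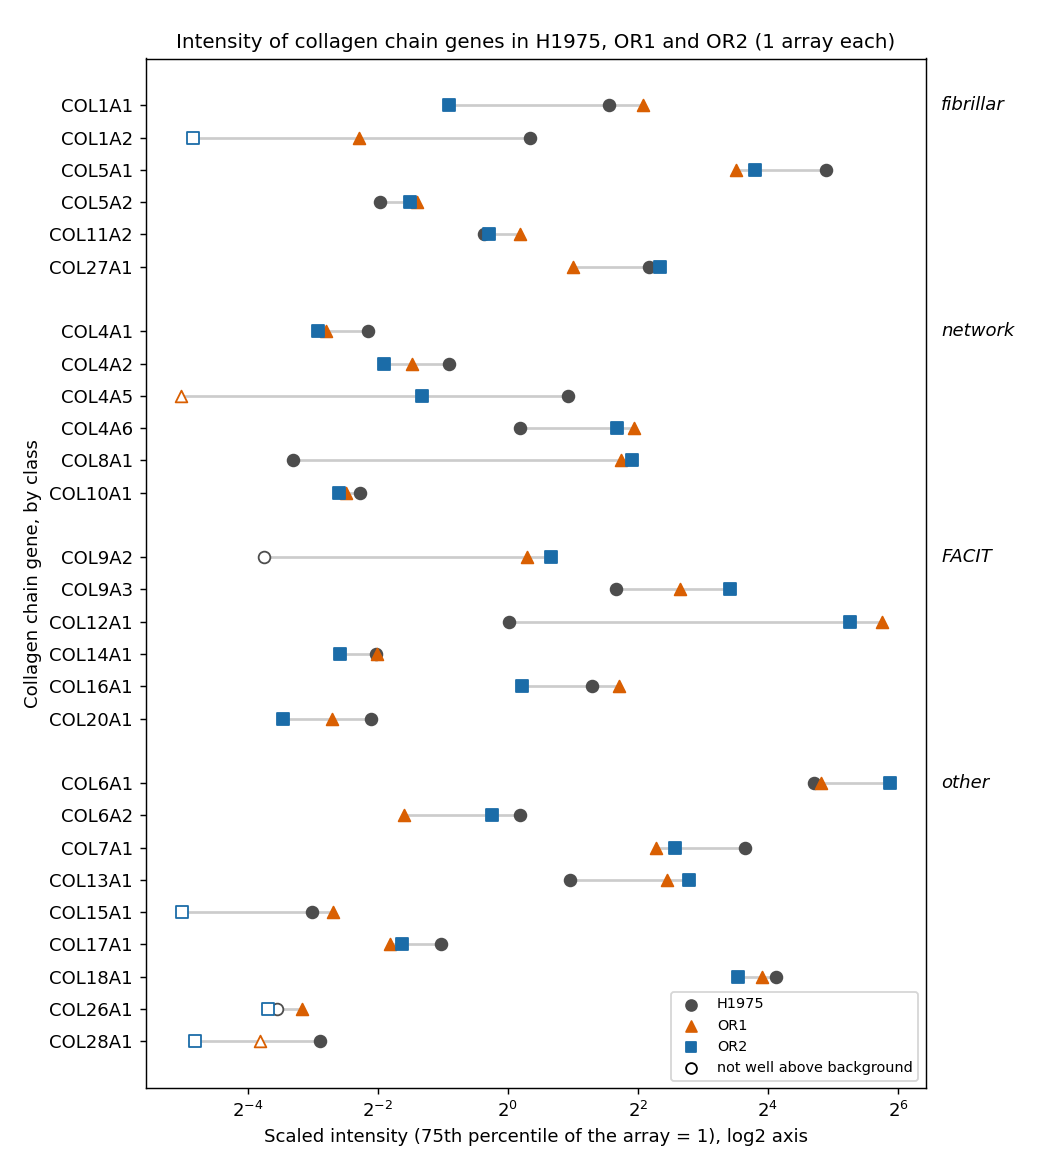
Scaled intensity (horizontal, log2 axis, 75th percentile of the array at 1) of the 27 collagen genes well above background on at least 1 array, by class, with circles for H1975, triangles for OR1 and squares for OR2 (1 array each) and open symbols for probes not well above background. COL12A1, COL8A1 and COL9A2 lie far to the right of H1975 in both resistant lines, COL1A2 and COL4A5 far to the left, and different genes should not be compared along the axis because each has its own probe.

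In OR1, 5 of the 27 genes with a ratio were higher than in H1975 (18.5%) and 6 were lower (22.2%), against 9.17% higher and 9.58% lower among all 21864 genes with a ratio. In OR2, 7 of 26 were higher (26.9%) and 8 were lower (30.8%), against 7.72% and 8.7% of 21686 genes. In both lines at once, 5 of 26 genes were higher (19.2%) and 4 were lower (15.4%), against 5.4% and 6.71% of 21132 genes. Changes past the limits were thus more frequent among collagen genes than among all genes in each direction under these settings, with no test of that difference. The set was chosen with earlier results of these data known, so the higher shares are a description. The count lower in both depended on processing and was 2 with the authors' intensities and 2 with all 3 arrays above background. No collagen gene was called in opposite directions in the 2 lines. The share of such genes among all genes was not computed, and both ratios use the same H1975 array. The genes called higher in both lines were COL12A1, COL8A1, COL9A2, COL4A6 and COL13A1, and those called lower in both were COL1A2, COL5A1, COL4A5 and COL7A1. The called genes came from every class. Of 6 fibrillar chains with a ratio, 0 were called higher in either line, and of 6 FACIT chains, 0 were called lower in OR1. With so few genes, 0 is near the all-gene shares of 9.17% and 7.72% higher and 9.58% lower given above.

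The changes went both ways, and the median over the collagen genes stayed near that of all genes in OR1. The median log2 ratio of the collagen genes was 0.01 in OR1 and -0.57 in OR2, against 0.04 and -0.06 over all genes. By class, the medians in OR1 and OR2 were -0.31 and -0.51 for the fibrillar, -0.40 and -0.55 for the network, 0.70 and 0.60 for the FACIT and -0.23 and -0.59 for the other chains. FACIT was the only class with a positive median, and 3 of its 6 genes, COL12A1, COL9A2 and COL9A3, had ratios clearly above 1 in both lines. When only genes well above background on all 3 arrays were kept, which drops COL9A2, the FACIT median in OR2 was -0.55, and the fibrillar medians, then without COL1A2, were 0.54 in OR1 and 0.07 in OR2.

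**Figure D2:**
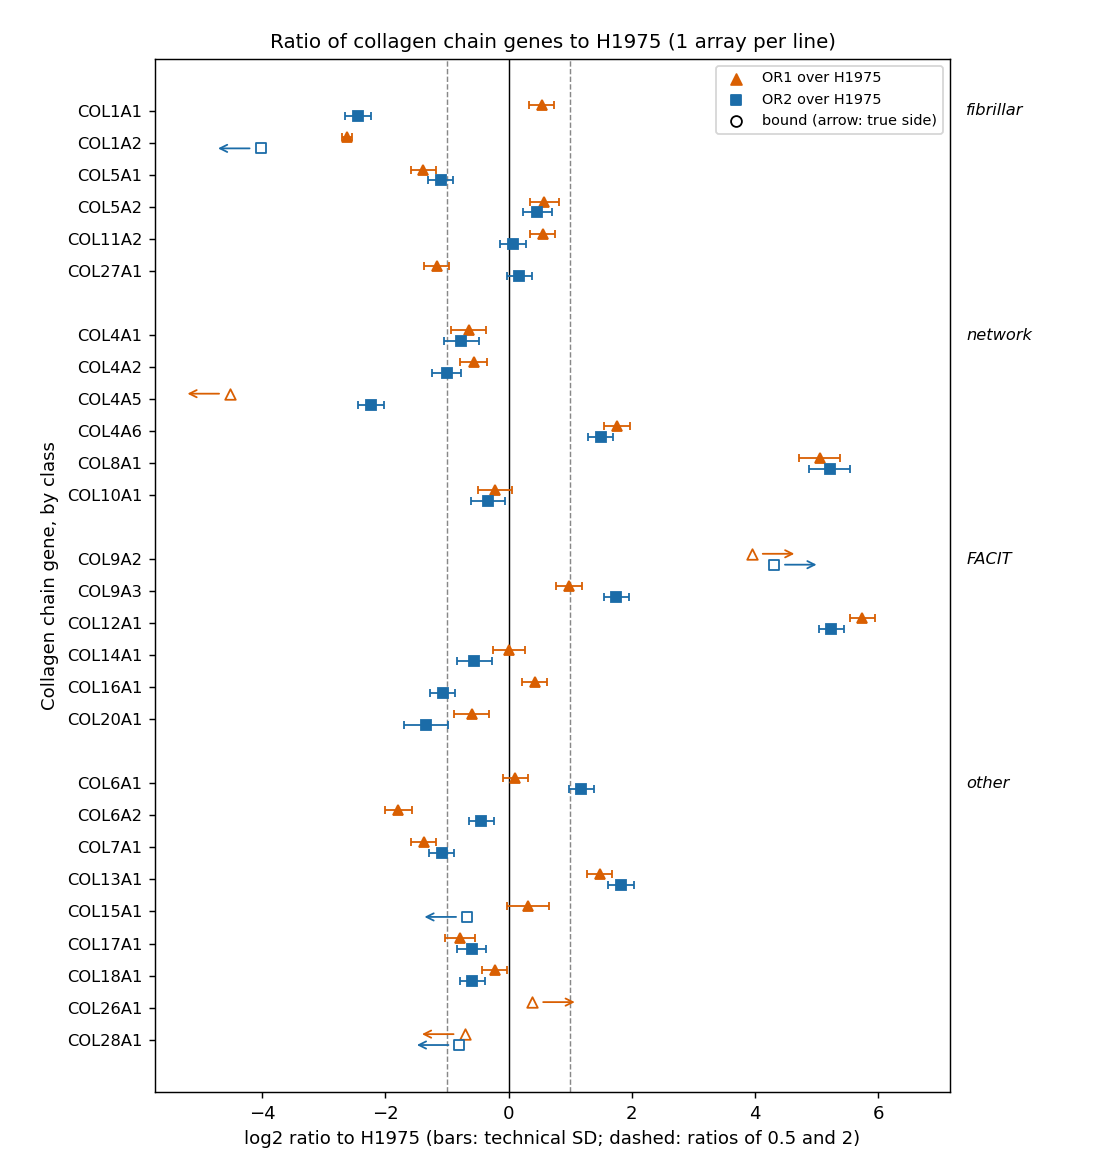
Log2 ratio to H1975 (horizontal) of the 27 collagen genes, by class, with triangles for OR1 and squares for OR2, bars for the technical SD of 1 array against 1 array, dashed lines at ratios of 0.5 and 2, and open symbols with arrows for bounds. COL12A1 reached a ratio of 53.4 in OR1 and COL8A1 a ratio of 37.0 in OR2, while COL1A2 and COL4A5 lie at the left edge and COL1A1 lies on opposite sides of 0 in the 2 lines.

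Collagen XII, a FACIT collagen that decorates collagen I fibers in tendon, skin and stressed stroma, is encoded by COL12A1 alone (NM_004370, probe at chr6:75794289-75794348 of hg19). Its intensity was 159 in H1975, against 7469 (OR1) and 6189.5 (OR2). The 2 resistant lines were far above H1975, with ratios of 53.4 and 37.8 (technical SD 0.21 on the log2 scale for each). A second COL12A1 probe, at chr6:75822928-75822987, was at background in H1975 with an intensity of 7.96 and read 514 in OR1 and 349 in OR2, giving ratios of at least 46.6 and at least 27.0. OR2 lay below OR1 on both probes, with OR2 to OR1 ratios of 0.707 and 0.580, neither past the limit of 0.5. Over the settings, the OR2 to OR1 ratio of COL12A1 ran from 0.640 to 1.13. The 250 bases upstream of the COL12A1 start are shown because its ratio in OR1 was the highest among the collagen genes, at chr6:75206054-75206303 on the minus strand (RefSeq, GRCh38.p14). Capitals mark a GC box (GGGCGG, here on the opposite strand as CCGCCC) and a TEAD motif (GGAATG). Both were searched on both strands, and they were held by 42.6% and 11.9% of all 35116 upstream windows of this length. A match is a description of the letters and not evidence of a bound factor.
COL12A1 upstream: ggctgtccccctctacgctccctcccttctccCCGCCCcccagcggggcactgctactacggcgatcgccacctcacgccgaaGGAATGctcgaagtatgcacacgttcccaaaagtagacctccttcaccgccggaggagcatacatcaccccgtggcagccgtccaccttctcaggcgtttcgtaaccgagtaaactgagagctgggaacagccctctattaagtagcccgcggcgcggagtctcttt

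COL8A1, a short-chain network collagen of vessel walls and of the membrane under the corneal endothelium (NM_001850), was barely above background in H1975. Its intensity was 16.0 in H1975, 462 for OR1 and 606 for OR2, and the ratios were 33.0 and 37.0 (technical SD 0.33 for each). Under normexp background correction, which adds an offset of 50 and so pulls dim values together, they were 7.67 and 8.59. For its partner chain COL8A2 no ratio was formed. Of the 2 COL8A2 probes, the brighter on average read 2.71 in H1975, against 11.6 (OR1) and 10.2 (OR2), all at background. The other went the opposite way, at 11.4 in H1975, 2.97 for OR1 and 6.99 for OR2, also all at background. The probes of the 2 chains overlap in related sequence, and they are shown because a high COL8A1 beside an undetected COL8A2 depends on the probes telling them apart. Capitals mark the bases that are equal where the 2 probes overlap when aligned without gaps, 26 of 36 bases (72.2%). The COL8A1 probe lies at chr3:99514765-99514824 and the COL8A2 probe at chr1:36563302-36563361 (hg19).
COL8A1 probe: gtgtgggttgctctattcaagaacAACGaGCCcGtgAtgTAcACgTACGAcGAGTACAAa
COL8A2 probe: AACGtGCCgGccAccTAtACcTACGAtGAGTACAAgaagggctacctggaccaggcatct

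Collagen IX is a FACIT collagen of cartilage made of chains from COL9A1, COL9A2 and COL9A3. COL9A2 was called higher in both resistant lines and COL9A3 in OR2 only. COL9A2 (NM_001852, chr1:40766380-40766439) read 11.7 in H1975, at background, 169.7 for OR1 and 255 for OR2. The ratios were at least 15.4 and at least 19.8, or 3.18 and 3.87 under normexp. A second COL9A2 probe, at chr1:40783351-40783410, was at background on all 3 arrays, so the calls rest on the first. COL9A3 (NM_001853, chr20:61472271-61472330) was already well above background in H1975 and stood higher in OR1 and higher still in OR2, with intensities of 499 in H1975, against 864 (OR1) and 1723 (OR2). Its ratio of 1.97 in OR1 fell just short of the limit and its ratio of 3.36 in OR2 passed it (technical SD 0.20 for each). COL9A1 was at background on every array.

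COL4A6 and COL13A1 changed less but the same way in both lines. COL4A6 (NM_033641, chrX:107399050-107399109), a basement membrane chain found under smooth muscle and some epithelia, had intensities of 178 in H1975, 530.1 for OR1 and 516 for OR2. Both resistant lines stood at about the same level, with ratios of 3.39 and 2.81. COL13A1 (NM_080801, chr10:71718811-71718870), a membrane-spanning collagen of cell adhesion sites, read 307 in H1975, against 751 (OR1) and 1117 (OR2), with ratios of 2.79 and 3.54. A second COL4A6 probe was at background on all 3 arrays.

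Collagen I, the main protein of connective tissue fibers, is a trimer of COL1A1 and COL1A2 chains, and these 2 genes parted in OR1. COL1A2 (NM_000089, chr7:94058643-94058702) was spotted 10 times per array, with 9 spots kept in H1975, and read 199.7 in H1975, 28.3 for OR1 and 5.65 for OR2, the last at background. The SD between its spots was 0.11, 0.26 and 0.70 on the log2 scale on the 3 arrays. Its ratio was 0.162 in OR1 and at most 0.0615 in OR2, or 0.390 and 0.284 under normexp. COL1A1 (NM_000088, chr17:48261509-48261568) read 461 in H1975, against 585 (OR1) and 86.8 (OR2). OR1 was slightly above H1975, at a ratio of 1.45 that was not called and was 0.955 with scaling on spike-in probes, while OR2 was far below it at 0.183 (technical SD 0.20 and 0.21). Between the resistant lines, the OR2 to OR1 ratio was 0.127 for COL1A1 and at most 0.380 for COL1A2.

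Collagen V, which is incorporated into collagen I fibers and regulates their diameter, also showed chains that did not move together. COL5A1 (NM_000093, chr9:137736327-137736386) read 4692 in H1975, 1578 for OR1 and 2253 for OR2, lower in both lines with ratios of 0.384 and 0.467. Its other 2 probes were also lower in both lines, at 0.289 and 0.414 for one and at most 0.254 and at most 0.264 for the other. COL5A2, the partner chain, read 40.2, 52.6 and 57.1 in H1975, OR1 and OR2, with ratios of 1.49 and 1.38 that were not called. COL11A2, a minor fibrillar chain of cartilage, read 123, 158 and 132 and was not called either, with ratios of 1.47 and 1.05.

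On its brightest probe, COL27A1, a fibrillar chain of cartilage, was lower in OR1 but not in OR2. That probe (NM_032888, chr9:117073738-117073797) read 708 in H1975, against 277 (OR1) and 821 (OR2), with ratios of 0.446 and 1.13 and an OR2 to OR1 ratio of 2.53. Its other probes differed from this one. One gave 0.836 in OR1 and 0.742 in OR2 and was called in neither line. The other gave at most 0.388 in OR1 and 0.472 in OR2, lower in both lines.

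COL4A5, a basement membrane chain, and COL7A1, an anchoring fibril chain, were lower in both lines. COL4A5 (NM_033380, chrX:107940580-107940639), the chain mutated in X-linked Alport syndrome, read 298 in H1975, 4.24 for OR1 and 65.1 for OR2. It was at background in OR1 alone, with ratios of at most 0.0436 in OR1 and 0.212 in OR2 (0.200 and 0.335 under normexp) and an OR2 to OR1 ratio of at least 4.87. COL7A1 (NM_000094, chr3:48602401-48602588), which forms the fibrils that anchor epidermal basement membrane to the dermis, read 1980.4 in H1975, against 667 (OR1) and 960.3 (OR2). Its ratios of 0.384 and 0.472 were nearly those of COL5A1. COL4A1 and COL4A2, which make the common collagen IV trimer of nearly all basement membranes, were lower by less. COL4A1 read 35.5, 19.9 and 21.4 and COL4A2 read 84.1, 49.7 and 43.0 in H1975, OR1 and OR2. Their ratios were 0.638 and 0.588 for COL4A1 and 0.674 and 0.498 for COL4A2, of which only the last passed the limit of 0.5, and it did not in 5 other settings (0.502 to 0.697).

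Genes of collagen IV lie in head-to-head pairs, which allows neighbours with a common upstream region to be compared. The starts of COL4A5 and COL4A6 lie 380 bases apart on chromosome X, and their 250-base upstream windows share 121 bases. The starts of COL4A1 and COL4A2 lie 127 bases apart on chromosome 13. The first pair went opposite ways in both resistant lines, with log2 ratios of at most -4.52 (OR1) and -2.23 (OR2) for COL4A5 and of 1.76 and 1.49 for COL4A6. The second pair went the same way, with log2 ratios of -0.65 and -0.77 for COL4A1 and -0.57 and -1.0 for COL4A2. COL4A3 and COL4A4, whose starts lie 419 bases apart on chromosome 2, were at background on all arrays. RefSeq lists a further COL4A6 start, at position 108438422 of chromosome X, and the files do not show which start the measured transcripts used. The windows of COL4A5 (chrX:108439588-108439837, plus strand, 51.2% G and C) and COL4A6 (chrX:108439459-108439708, minus strand, 44.0% G and C) and the bases between the starts of COL4A1 and COL4A2 (chr13:110307158-110307283, plus strand, 80.2% G and C) are given from RefSeq and GRCh38.p14. Capitals mark CCAAT boxes (CCAAT, or ATTGG on the opposite strand), found in 32.0% of all windows, and GC boxes.
COL4A5 upstream: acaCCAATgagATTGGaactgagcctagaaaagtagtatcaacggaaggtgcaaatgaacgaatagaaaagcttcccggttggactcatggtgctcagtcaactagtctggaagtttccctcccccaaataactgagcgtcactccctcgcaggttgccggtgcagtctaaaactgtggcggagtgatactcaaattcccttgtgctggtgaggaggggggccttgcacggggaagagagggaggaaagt
COL4A6 upstream: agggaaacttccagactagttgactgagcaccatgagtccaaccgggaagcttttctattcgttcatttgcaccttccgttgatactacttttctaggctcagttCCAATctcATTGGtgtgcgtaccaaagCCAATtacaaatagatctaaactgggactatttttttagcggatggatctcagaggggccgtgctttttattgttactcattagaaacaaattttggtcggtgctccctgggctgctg
COL4A1 to COL4A2: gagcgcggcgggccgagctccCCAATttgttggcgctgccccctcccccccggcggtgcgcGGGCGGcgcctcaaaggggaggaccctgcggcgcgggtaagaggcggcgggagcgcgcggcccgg

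Across the 32 collagen genes with an upstream window in the table, 11 held a CCAAT box, 21 a GC box, 7 a TATA box (TATAAA), 5 an E-box (CAGGTG), 3 the TEAD motif and 1 an AP-1 motif (TGANTCA, N being any base). Counted the same way, by gene with a match in any of its windows, the shares among all 27305 genes of the table were 37.0% for the CCAAT box, 46.2% for the GC box, 13.0% for the TATA box, 20.6% for the E-box, 14.3% for the TEAD motif and 8.06% for the AP-1 motif. Of the genes higher in both lines, 4 had a window, and a GC box stood in 3 of these and each of the TATA box, CCAAT box, E-box and TEAD motif in 1. Of the genes lower in both, 3 had a window, with a GC box in 2 and a TATA box and a CCAAT box in 1 each. COL8A1 and COL1A2 had no entry in the table.

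**Figure D3:**
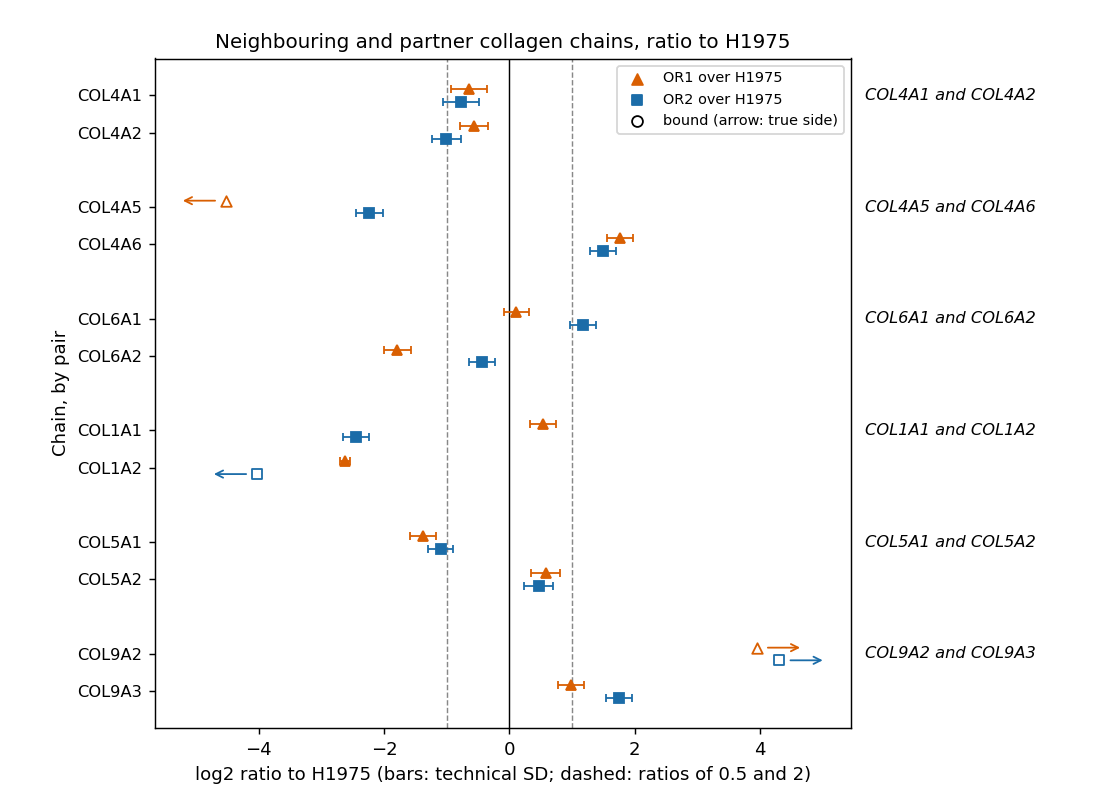
Log2 ratio to H1975 (horizontal) of both members of the 6 pairs of collagen chains that are genomic neighbours or partners in a trimer and were both detected, with triangles for OR1, squares for OR2, bars for the technical SD, dashed lines at ratios of 0.5 and 2, and open symbols with arrows for bounds. COL4A5 and COL4A6 lie on opposite sides of 0 in both lines, COL1A1 and COL1A2 are apart in OR1 and both far left in OR2, and COL4A1 and COL4A2 lie together.

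Collagen VI forms beaded filaments around cells, and its COL6A1 and COL6A2 genes are neighbours on chromosome 21. COL6A1 (NM_001848, chr21:47424836-47424895) read 4099 in H1975, 3883 for OR1 and 9525 for OR2. It was higher in OR2 only, with ratios of 1.08 and 2.26 and an OR2 to OR1 ratio of 2.09. COL6A2 (NM_058174, chr21:47546086-47546145) read 179 in H1975, against 45.6 (OR1) and 136 (OR2), lower in OR1 only with ratios of 0.290 and 0.737. A second COL6A2 probe gave 0.554 and 1.07, so that the call in OR1 rested on the first, but OR2 lay above OR1 on both, by 2.54 and 1.92. The third chain of the usual trimer, COL6A3, was at background on every array with both of its probes.

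The remaining FACIT chains moved less. COL16A1, found near fibrillin and at the junction of dermis and epidermis (NM_001856, chr1:32118175-32118234), read 385 in H1975, 452 for OR1 and 189 for OR2. It was on opposite sides of H1975 in the 2 lines, with ratios of 1.34 and 0.477 and an OR2 to OR1 ratio of 0.356, although OR1 was at 0.883 with spike-in scaling and the call in OR2 was lost there (0.50), with the median over its probes (0.572) and under normexp (0.539). The probe whose sequence is printed above gave 1.05 and 0.685, a smaller difference in the same order. COL20A1 (NM_020882, chr20:61960951-61961010) was dim, at 36.5, 21.1 and 14.8, and was lower in OR2 with a ratio of 0.394 (0.742 under normexp), against 0.659 in OR1. Of its other probes, one was at background on every array and one was above background in H1975 only, with ratios of at most 0.179 and at most 0.169. COL14A1, a FACIT collagen of tendon and skin, read 38.8, 34.2 and 27.2 with ratios of 1.01 and 0.681.

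Most of the other chains were not called in either line. COL18A1 (NM_030582), a basement membrane collagen whose end fragment is endostatin, read 2755 in H1975, against 2066 (OR1) and 1879.9 (OR2), with ratios of 0.855 and 0.664. COL17A1, the hemidesmosome collagen of basal epithelial cells, read 77.2, 39.2 and 52.5 with ratios of 0.580 and 0.662. COL10A1, the network collagen of hypertrophic cartilage, read 32.7, 24.6 and 26.7 with ratios of 0.856 and 0.795. COL15A1, COL26A1 and COL28A1 never exceeded an intensity of 21.4 and were each at background on at least 1 array. In all, 10 of the 27 genes were called in neither line, 9 in both and 8 in 1 only.

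Between the resistant lines themselves, fewer genes differed. In OR2 against OR1, 4 of 26 collagen genes were higher (COL4A5, COL27A1, COL6A1 and COL6A2) and 3 were lower (COL1A1, COL1A2 and COL16A1), which is 15.4% and 11.5% against 2.48% and 2.89% of 21432 genes. With spike-in scaling, which shifts the all-gene median of this comparison by 0.68 on the log2 scale, 7 of 25 were higher, COL9A2, COL9A3 and COL13A1 being added, and 1 was lower, COL1A1. Under normexp 2 were higher, COL27A1 and COL6A1, and 2 lower, COL1A1 and COL16A1. These settings were applied to the counts after the data had been seen.

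Collagen chains need a set of enzymes and chaperones to be hydroxylated, folded, exported, trimmed and crosslinked, and cells bind them through dedicated receptors. Of 46 such genes in 6 lists, 40 were detected on 1 array or more. Of the 37 with a ratio in both lines, 3 were higher in both (8.11%) and 6 were lower in both (16.2%), against 5.4% and 6.71% of all genes. None was called in opposite directions, again with no share over all genes computed and the same H1975 array in both ratios. The lists were chosen with earlier results of these data known, so these counts are descriptions.

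Among genes of folding and export, SERPINH1 and MIA2 went opposite ways. SERPINH1 (NM_001207014), the collagen chaperone HSP47 of the endoplasmic reticulum, read 5568 in H1975, 17186 for OR1 and 14784 for OR2, with ratios of 3.52 and 2.58. MIA2, which helps load procollagen into export vesicles and is measured here by a probe with the older symbol CTAGE5 (NM_203356), read 469, 99.8 and 139, with ratios of 0.243 and 0.289. The other 6 genes of this list, FKBP10, FKBP14, MIA3, SEC24D, CREB3L1 and TMEM38B, were called in neither line. Of the prolyl hydroxylation genes, P4HA2, a catalytic subunit of prolyl 4-hydroxylase, was lower in both lines, at 5995 in H1975, against 1895 (OR1) and 1879.5 (OR2) with ratios of 0.361 and 0.305. The other 8 detected genes of this list included P3H1 (2.58 in OR1, 1.99 in OR2), P3H3 (0.476 and 0.834) and CRTAP (1.35 and 2.16), each past a limit in 1 line only. Of the lysyl hydroxylation and glycosylation genes, 0 of 4 detected passed the limits in both lines. Over all genes 5.4% were higher and 6.71% lower in both, so 0 of 4 is near those shares. COLGALT1, which adds galactose to hydroxylysine, was higher in OR1 only (2.34 and 1.95).

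The propeptide cleavage list held PCOLCE and PCOLCE2, related enhancers of procollagen C-proteinase, which went opposite ways. PCOLCE (NM_002593) read 185 in H1975, 39.7 for OR1 and 85.97 for OR2, with ratios of 0.245 and 0.452. PCOLCE2 (NM_013363) read 237, 760.4 and 546, with ratios of 3.66 and 2.24, so that 1 enhancer was lower and the other higher in each resistant line. BMP1, the proteinase itself, was not called (0.888 and 0.829). Of the 5 lysyl oxidases, which crosslink collagen, LOXL4 (NM_032211) was higher in both lines, at 57.8 in H1975, against 830.2 (OR1) and 503 (OR2) with ratios of 16.4 and 8.47. LOXL1 was higher in OR1 only (6.08 and 1.48) and LOX was lower in OR2 only (0.598 and 0.252).

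Of the 10 receptor and uptake genes, 9 were detected and 7 had a ratio in both lines. Of these 7, 3 were lower in both (42.9%) and 0 were higher in both, against 6.71% and 5.4% of all genes. For 2 of the 3, ITGA2 and GP6, the ratios are bounds of dim probes. MRC2 (NM_006039), the endocytic receptor Endo180 that takes up collagen for degradation, read 7550 in H1975, 1615 for OR1 and 2344 for OR2, with ratios of 0.244 and 0.302. ITGA2, the alpha chain of an epithelial collagen-binding integrin, read 42.7 in H1975 and was at background in both resistant lines, with ratios of at most 0.305 and at most 0.288. GP6, a collagen receptor known from platelets, was likewise above background in H1975 only, at 31.3, with ratios of at most 0.415 and at most 0.392. ITGA11, the alpha chain of another collagen-binding integrin, was above background in OR1 only, at 28.6, with a ratio of at least 2.60 there. DDR1, a receptor tyrosine kinase for collagen, was not called (0.768 and 0.874), and DDR2 was at background on all arrays.

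**Figure D4:**
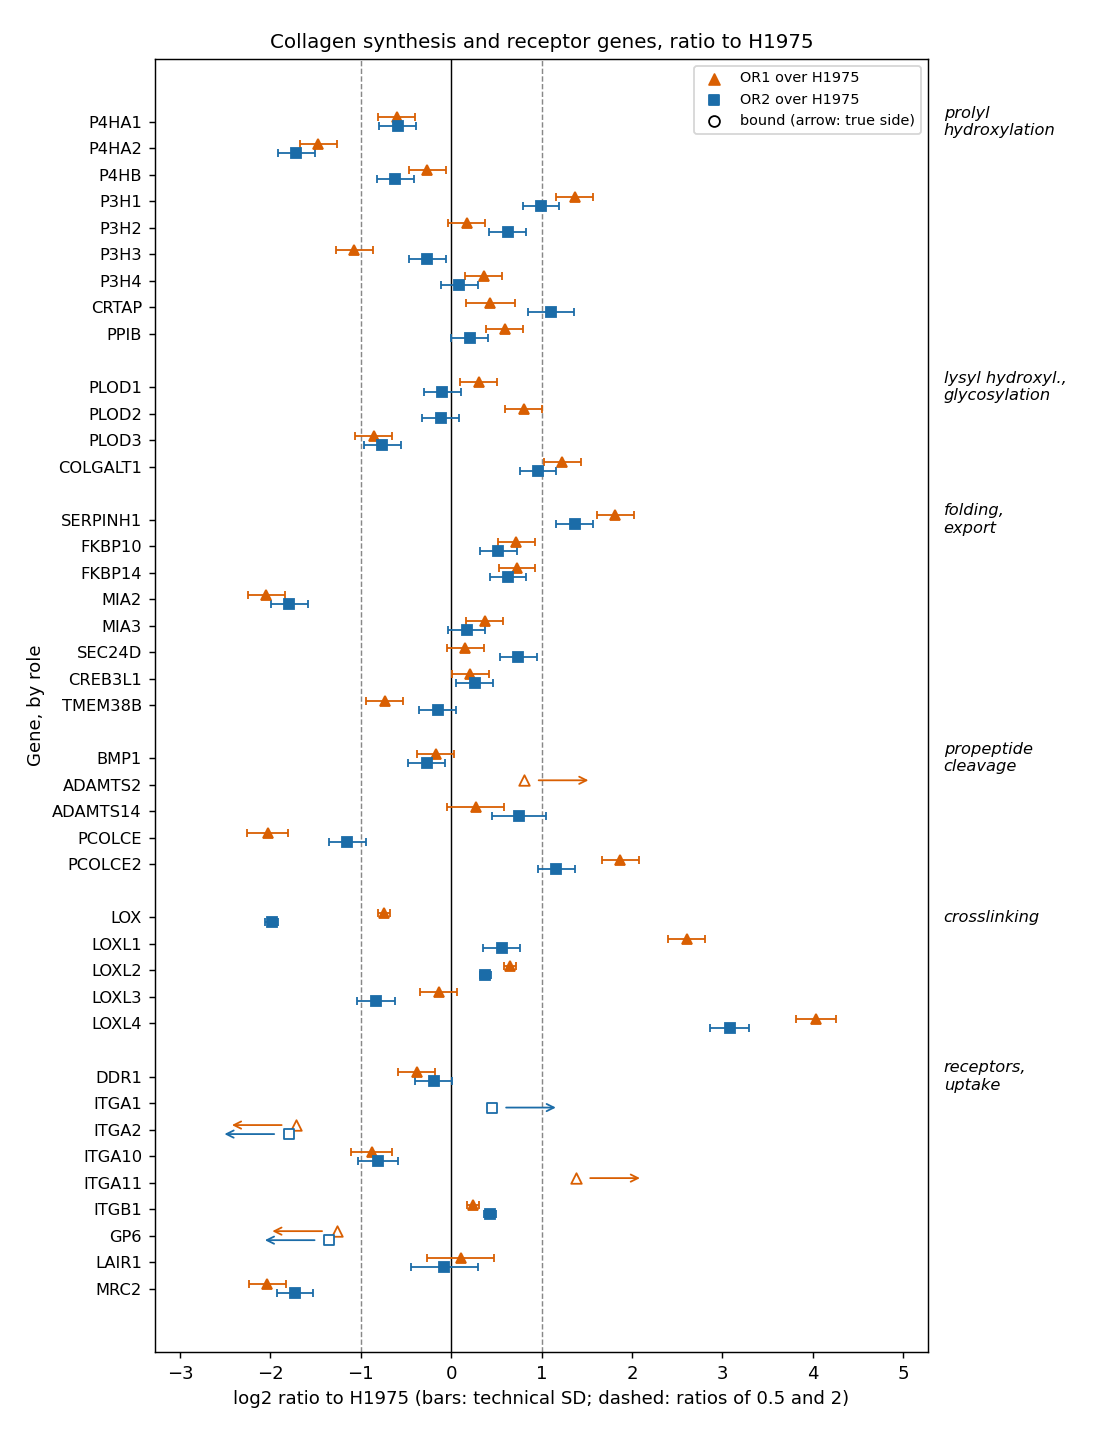
Log2 ratio to H1975 (horizontal) of the collagen synthesis, crosslinking and receptor genes with a ratio, by role, with triangles for OR1, squares for OR2, bars for the technical SD, dashed lines at ratios of 0.5 and 2, and open symbols with arrows for bounds. LOXL4 is farthest to the right at 16.4 in OR1, while MRC2, MIA2, ITGA2 and PCOLCE lie left of the lower limit in both lines.

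Markers of cell type also differed between the lines, and not all of them the same way. Of the 9 lung epithelial markers, EPCAM (0.0370 and 0.0725), CDH1 (0.0205 and 0.0800), KRT7 (0.164 and 0.170) and KRT19 (0.463 and 0.492) were lower in both lines. NKX2-1, a transcription factor of lung epithelium, was lower in OR1 only (0.252 and 1.36), with an OR2 to OR1 ratio of 5.42. NAPSA, a protease of lung epithelium, was called in neither line (0.770 and 1.57) but was higher in OR2 than in OR1, by 2.03, and KRT8 and KRT18 were called in neither. The summed scaled intensity of this list was 2486 in H1975, against 1073 (OR1) and 1072 (OR2), a sum over probes of unequal brightness that does not stand for the level of each marker. That of the 9 fibroblast markers was 1.59 in H1975, 8.10 for OR1 and 5.24 for OR2, with 3, 3 and 2 markers well above background. Most of this sum was the single gene FBLN1, with scaled intensities of 1.13, 7.23 and 4.87. FBLN1, a matrix glycoprotein, read 178 in H1975, against 998 (OR1) and 788 (OR2), with ratios of 6.41 and 4.32. DPT, also well above background on all 3 arrays, was called in neither line (1.21 and 1.07). LUM, a small proteoglycan that binds collagen fibers, read 59.8 in OR1 and was at background in the other lines, and FAP was above background in H1975 only, at 16.8. The part of these differences in the collagen values was not tested.

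With OR1 and OR2 taken as 2 samples of resistant cells against H1975, limma gave an adjusted p of 0.0303 for COL12A1, 0.0303 for COL8A1 and 0.0308 for COL9A2, and no collagen gene was lower at an adjusted p under 0.05, against 0.928% of all 22418 genes higher and 1.66% lower. At an unadjusted p under 0.05, 6 of 27 collagen genes were higher and 3 lower, COL1A2, COL5A1 and COL7A1, against 9.15% and 9.48% of all genes. This fit had 1 residual degree of freedom and assumes that the lone H1975 array varies as the other lines do. It also took readings at background as measured values, where the ratios above are bounds. Among these were COL9A2 in H1975 (11.7) and COL1A2 in OR2 (5.65).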

How the data were processed

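Total RNA of each line was labeled by the authors and hybridized to 1 Agilent array. The deposited scanner files hold an intensity per spot that Agilent Feature Extraction (10.7.1.1 per the file headers, 9.5.1.1 in the submitters' processing notes) had corrected for background, unscaled between arrays. The authors' value table holds linear intensities with a median of 9.51 in every column, and how they were normalized is not given in the sources used here. Ratios of 2 and 0.5 follow the methods, with quantile, median, spike-in (7 probes) or no scaling, normexp, the authors' intensities, other filters, probe rules and ratios, and limma as alternatives. Control spots and outlier spots (45, 61 and 46) were left out, repeated spots were averaged as log2, and each array's 75th percentile was subtracted. 43 of the 44 accessions were found in the RefSeq table, all with the same symbol. Probe positions are hg19 per the files, and whether a probe lies in an exon or UTR was not determined. Every collagen gene is accounted for; those above background are named, with all intensities where past a ratio in a line or among the 5 brightest collagen probes of an array, and other genes were named where past it in both lines. Members and lists were chosen with earlier results of these data known. The counting was tested on simulated data built from genes well above background on all 3 arrays. Its only noise was scanner error, so variation between cultures was left out. Python 3.11.15, numpy 2.4.6, pandas 2.3.3, R 4.3.3 and limma 3.58.1 were used.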

Additional observations from a re-analysis of the deposited data

Results flagged for a closer look

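COL1A1 and COL16A1 lay on opposite sides of H1975 in the 2 resistant lines, each by more than the technical SD. The ratio of COL1A1 was 1.45 in OR1 and 0.183 in OR2, and that of COL16A1 was 1.34 in OR1 and 0.477 in OR2. With scaling on the spike-in probes the OR1 ratios were 0.955 and 0.883, below 1 for both. Each line has 1 array, so this difference was not tested.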

How the results depend on the processing

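COL12A1, COL8A1, COL9A2, COL4A6, COL1A2 and COL4A5 passed a ratio of 2 or 0.5 in both lines under every setting that gave a value. Among the other genes called in both lines, the exceptions were COL13A1 with spike-in scaling (1.84 in OR1), COL5A1 with quantile normalization (0.510 in OR2) and the authors' intensities (0.509 in OR2), and COL7A1 with the latter (0.50 in OR2, just above the limit). COL4A2 in OR2 was above the limit in 5 settings, at 0.502 to 0.697. Of all single-gene ratios recomputed, 810 stayed within the technical SD of their value and 138 moved further, 55 of them with spike-in scaling and 42 with normexp, and no called ratio changed direction. The lower counts moved most. In OR1, 6 lower genes became 10 with probes counted, 10 at a ratio of 1.5, 2 at a ratio of 4 and 11 with spike-in scaling. In OR2, 8 became 5 with the authors' intensities, 5 with normexp, 13 at 1.5 and 3 at 4. In both lines, 4 became 2 with all 3 arrays above background, 2 with the authors' intensities, 0 with limma, 8 with probes counted, 8 at 1.5 and 2 at 4. Higher genes numbered 10 in OR1 without a background filter. At a ratio of 4 they numbered 3 in OR1, 3 in OR2 and 3 in both. With normexp, 5 synthesis and receptor genes passed the ratio in both lines in place of 9. For OR2 against OR1, settings applied after the data had been seen, 4 higher genes became 7 with spike-in scaling, 2 with normexp and 1 at a ratio of 4, and 3 lower genes became 1 with spike-in scaling, 9 without a background filter, 5 at 1.5 and 1 at 4. The all-gene median of OR1 shifted by -0.62 with spike-in scaling, -0.19 unscaled and -0.11 with median scaling. The median log2 ratio of the collagen genes in OR1 (0.01) was -0.054 with the authors' intensities, -0.054 with quantile normalization, -0.10 with median scaling, -0.18 unscaled and -0.71 with spike-in scaling. Class medians with spike-in scaling were 0.10 (FACIT), -0.92 (fibrillar), -1.0 (network) and -1.07 (other) in OR1. With all 3 arrays above background they were 0.42 (FACIT), 0.54 (fibrillar) and -0.51 (other) in OR1, and -0.55 (FACIT), 0.073 (fibrillar) and -0.33 (network) in OR2. With normexp they were -0.091 (network, OR1), -0.23 (network, OR2) and -0.25 (other, OR2), and -0.21 for all collagen genes in OR2. The median over probes gave -0.85 for the fibrillar chains in OR2. The cause of these shifts was not tested, except that fewer genes remain where all arrays must be above background. Leaving out a replicate was not run and no paired analysis was possible because each line has 1 array. For dim genes such as COL20A1, COL4A1 and COL15A1, the background limits what a ratio can show.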

Other observations

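The array also carried 7 genes named after collagens that encode no listed chain. COL4A2-AS1, an antisense transcript of the COL4A2 locus, read 26.0 in H1975, 15.5 for OR1 and 21.7 for OR2, with ratios of 0.679 and 0.810. The antisense transcripts COL4A2-AS2, COL5A1-AS1, COL18A1-AS1 and COL18A1-AS2 and the pseudogenes COL6A4P1 and COL6A4P2 were at background on all 3 arrays.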
